A study of Mus musculus with 16 samples.

Results

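The cathepsins and legumain are the peptidases that digest protein inside the lysosome. The 10 genes described here, Ctsa, Ctsb, Ctsc, Ctsd, Ctsh, Ctsl, Ctso, Ctss, Ctsz and Lgmn, were taken by symbol from the 24421 genes counted in each library, and all 10 had enough counts to be tested. Epithelium was released with EDTA from the jejunum and ileum of 8 wild-type C57BL6/J mice, 4 at postnatal day 6 (P6) and 4 at postnatal day 36 (P36), with both sexes at each age. Each mouse gave both regions, so the 16 libraries of stranded mRNA fall into 4 groups of 4, and the replicates of a group are separate mice. No group carried a transgene, a deletion or a treatment. The count per library ranged from 12159237 to 25947276.

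Lysosomal peptidases are made as inactive precursors, delivered to lysosomes by mannose 6-phosphate receptors and matured there by cleavage. Endopeptidases such as cathepsins L, S and D and legumain cut within a chain, and exopeptidases such as cathepsins A, B, C, H and Z remove residues from its ends. Enterocytes of the suckling ileum are known for taking up milk protein into a large vacuole, where it is degraded, and this property is lost around weaning.

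Epithelial identity was checked first. Epcam, the epithelial adhesion marker, lay between 1137 and 2230 CPM in the 16 libraries, where CPM is the count scaled to the library total corrected by its TMM factor. C1qa, a complement gene of tissue macrophages, reached at most 4.39 CPM, and the macrophage gene Adgre1 at most 2.46 CPM. Other immune markers were higher. Csf1r reached 498 CPM in P6 jejunum replicate 2, and Ptprc 25.5 CPM in P36 jejunum replicate 3. T cell and natural killer cell markers summed to 135 CPM in the latter library. Some libraries stood apart in their group. In P6 ileum replicate 4 the 9 enterocyte markers summed to 12625 CPM, against 21255 to 24887 CPM in the other P6 ileum libraries. Its 7 stem and cycling cell markers summed to 798 CPM, against 376 to 528 CPM. Apoa4 led the enterocyte markers of the P6 ileum, with 37.9% of their summed group means. Epcam in replicate 4 was 1747 CPM, against 1834 to 2139 CPM. P36 ileum replicate 1 held 28381 CPM of the enterocyte markers, against 11661 to 17310 CPM in the other P36 ileum libraries. P6 ileum replicate 2 held 426 CPM of smooth muscle and fibroblast markers, against 6.13 to 45.1 CPM in the other P6 libraries. Results that rest on either of these P6 libraries are given with and without it.

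Together the 10 genes took 1.87 to 2.82% of all counts at P6 and 0.167 to 0.182% at P36. Compared per length, as TPM (transcripts scaled to a fixed total per library), the P6 jejunum reached a sum of 21989 ± 2840 TPM (SD, n = 4) and the P6 ileum one of 28031 ± 1954 TPM. At P36 the 10 genes summed to 1437 ± 42.1 TPM in the jejunum and 1310 ± 144 TPM in the ileum. The P6 mean was therefore 15.3 times the P36 mean in the jejunum and 21.4 times in the ileum. TPM is not corrected by the TMM factors, which were 0.877 to 0.935 in the P6 jejunum and 1.09 to 1.11 in the P6 ileum. Apoa4 alone took a mean of 89599 TPM in the P6 jejunum and 12428 TPM in the P6 ileum. The difference between the sums of the 2 regions at P6 can therefore depend on the scaling. Bulk counts cannot tell fewer cells of a type from less RNA per cell, which holds for every level below.

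The mixture of peptidases also differed between the groups. Ctsl, an endopeptidase of the papain family, held 52.2 ± 6.25% of the summed TPM in the P6 jejunum, and Lgmn, the asparaginyl endopeptidase, held 15.2 ± 2.95%. In the P6 ileum Lgmn held 36.9 ± 4.72% and Ctsl 28.1 ± 4.46%. Those 2 genes together made up 67.4% of the P6 jejunum total and 65.0% of the P6 ileum total, but 3.73% and 7.75% at P36. At P36 the total was led by Ctsz, Ctsb, Ctsd and Ctss, which held 26.7, 19.1, 18.5 and 15.1% in the jejunum and 17.3, 19.3, 20.8 and 15.6% in the ileum.

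**Figure D1:**
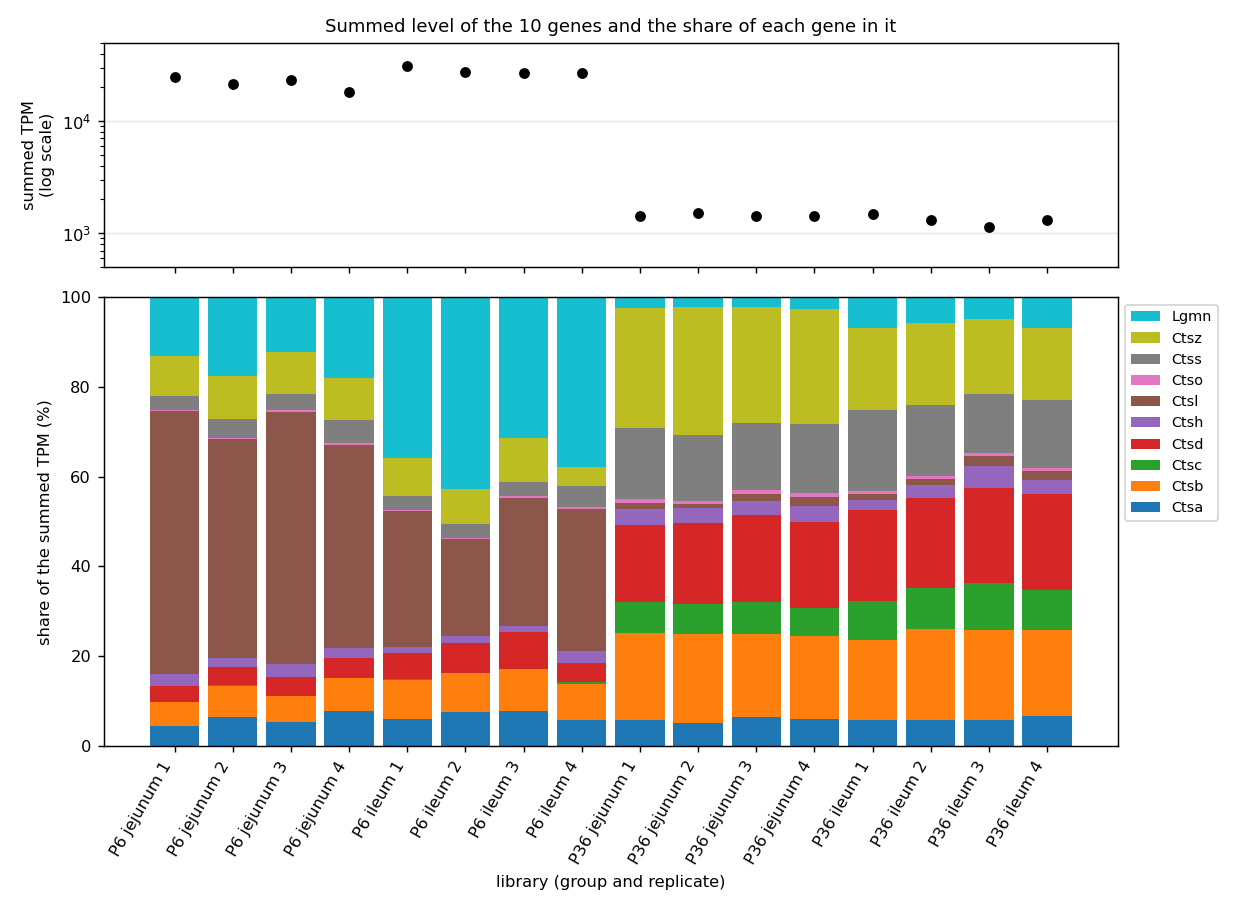
Summed TPM of the 10 genes in each library (upper panel, log scale) and the share of each gene in that sum (lower panel, percent), one dot and one bar per library. The P6 libraries sit at 18303 to 30890 TPM and are led by Ctsl and Lgmn, whereas the P36 means are 1437 and 1310 TPM and the libraries are led by Ctsz, Ctsb, Ctsd and Ctss.

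Ranked among all genes by mean TPM, Ctsl was number 4 (jejunum) and number 5 (ileum) at P6, and number 5459 and 5392 at P36. Lgmn was number 20 (jejunum) and 4 (ileum) at P6, and number 3903 and 1790 at P36. Within the family the order in the P6 jejunum was Ctsl, Lgmn, Ctsz, Ctsb, Ctsa, Ctsd, Ctss, Ctsh, Ctso and Ctsc. Of the 9 pairs of neighbours in that order, 2 had overlapping ranges of TPM over the libraries, Ctsb with Ctsa and Ctsd with Ctss. In the P6 ileum the order began with Lgmn and Ctsl, whose ranges overlapped, and 6 of 9 pairs of neighbours overlapped, among them every pair from Ctsb through Ctsz, Ctsa and Ctsd to Ctss. In the P36 jejunum 3 of 9 neighbouring pairs overlapped and in the P36 ileum 4 of 9. Ctso was last in both P36 groups, at 13.3 ± 0.780 and 9.59 ± 0.250 TPM.

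Promoter windows of the family were read from RefSeq (GRCm38.p6), from 250 bases before to 50 after an annotated start. The table gave 10 windows for 8 of the 10 genes. In all, 4 of the 10 windows, of 4 genes, held the hexamer CACGTG, the core of the E-box bound by the TFEB family of lysosomal regulators, against 7.15% of all 32851 windows. These 4 windows are shown here with CACGTG in capitals, and a link of the hexamer to the change with age was not tested. The hexamer is its own reverse complement, so both strands are covered, and positions count from the start of the window's transcript.
Ctsa window, chr2:164833523-164833822, plus strand: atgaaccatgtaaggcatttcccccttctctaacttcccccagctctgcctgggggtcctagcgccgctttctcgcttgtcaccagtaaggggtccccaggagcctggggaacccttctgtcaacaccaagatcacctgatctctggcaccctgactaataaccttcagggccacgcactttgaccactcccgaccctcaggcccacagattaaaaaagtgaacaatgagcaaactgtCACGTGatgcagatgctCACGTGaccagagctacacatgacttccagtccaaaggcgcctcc
Ctsd window, chr7:142387778-142388077, minus strand: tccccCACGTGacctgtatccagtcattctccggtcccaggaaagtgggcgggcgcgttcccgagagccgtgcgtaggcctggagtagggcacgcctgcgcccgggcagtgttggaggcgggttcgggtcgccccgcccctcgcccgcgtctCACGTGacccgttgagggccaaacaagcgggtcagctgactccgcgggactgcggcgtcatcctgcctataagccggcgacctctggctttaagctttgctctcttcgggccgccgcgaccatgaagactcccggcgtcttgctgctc
Ctsl window, chr13:64370471-64370770, minus strand: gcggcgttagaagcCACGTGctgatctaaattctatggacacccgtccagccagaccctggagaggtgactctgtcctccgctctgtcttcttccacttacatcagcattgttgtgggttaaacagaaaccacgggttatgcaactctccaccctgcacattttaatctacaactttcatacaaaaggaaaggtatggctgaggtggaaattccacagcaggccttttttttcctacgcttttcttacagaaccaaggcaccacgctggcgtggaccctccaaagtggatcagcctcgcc
Lgmn window, chr12:102439043-102439342, minus strand: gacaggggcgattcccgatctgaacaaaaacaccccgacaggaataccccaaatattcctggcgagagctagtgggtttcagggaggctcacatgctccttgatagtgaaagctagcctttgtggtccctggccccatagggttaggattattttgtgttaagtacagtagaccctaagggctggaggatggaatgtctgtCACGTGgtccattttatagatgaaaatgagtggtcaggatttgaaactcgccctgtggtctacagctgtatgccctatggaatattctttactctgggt

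The matches lay at -12 and 6 in the Ctsa window, at -245 and -98 in the Ctsd window, at -236 in the Ctsl window and at -49 in the Lgmn window. The Ctsa and Lgmn windows shown belong to starts 901 and 605 bases downstream of the gene start used for counting, and the windows at the main starts of both genes held no match. The Ctsl window belongs to a start 214 bases upstream of it. The palindromic CLEAR element of 10 bases, which extends the hexamer and which 0.326% of all windows held, was in 0 of 10 windows, and TCACGTG on either strand, which contains the hexamer, was in 3 of 10, against 3.77%. GGGCGG on either strand, an SP1-type GC box, was in 6 of 10 windows, against 35.7%. TATAAA was in 2 of 10, against 13.6%, and the AP-1 element TGACTCA in 0 of 10, against 5.2%. A match is a description of these letters, and binding was not measured.

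The change from P6 to P36 was compared within each region to describe how the family differs between the suckling and the weaned epithelium. In both regions 9 of the 10 genes were lower at P36 and 1, Ctsc, was higher, and all 10 passed an adjusted p of 0.05 in edgeR's quasi-likelihood test, against 51.6% (jejunum) and 55.7% (ileum) of tested genes. With the fold change minimum of the study, an absolute log2 fold change above 2, 7 genes were called lower in the jejunum, where 8.59% of all 13429 tested genes were called lower, and 1 was called higher, against 7.86%. In the ileum 8 genes were called lower, against 10.0%, and 0 higher, against 6.40%, with Ctsc short of the minimum in edgeR and past it in DESeq2. The 4 P36 libraries lay below the 4 P6 libraries for 9 of 10 genes in each region, against 33.0% (jejunum) and 23.6% (ileum) of tested genes. The median log2 fold change of the 10 genes was -2.33 in the jejunum and -2.80 in the ileum, against -0.01 and -0.03 over all tested genes.

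Ctsl had the largest difference with age in the family. In the jejunum it lay at 14706, 10675, 12051 and 8410 CPM in the P6 mice and at 20.0, 12.1, 23.2 and 30.1 CPM in the P36 mice. In the ileum it lay at 7003, 4712, 5579 and 5923 CPM at P6 and at 19.1, 14.3, 25.7 and 28.1 CPM at P36. Every P6 library was thus far above every P36 library. The log2 fold change was -9.07 (SE 0.40, adjusted p = 6.68e-11) in the jejunum, a level 537 times lower, and -8.06 (SE 0.38, adjusted p = 1.38e-10) in the ileum, 266 times lower. These ratios rest on P36 levels near 20 CPM, or 274 counts in the lowest P36 jejunum library.

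Lgmn, which cleaves after asparagine and also processes cathepsin precursors, fell in both regions. In the jejunum it lay at 3146, 3657, 2495 and 3178 CPM at P6 and at 36.7, 30.8, 31.2 and 37.0 CPM at P36. In the ileum it lay at 7865, 8861, 5818 and 6707 CPM at P6 and at 106, 63.7, 55.5 and 90.1 CPM at P36. The groups did not overlap in either region. Its log2 fold change was -6.52 (SE 0.27, adjusted p = 4.81e-11) in the jejunum and -6.53 (SE 0.27, adjusted p = 5.41e-11) in the ileum, or 91.9 and 92.7 times lower.

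**Figure D2:**
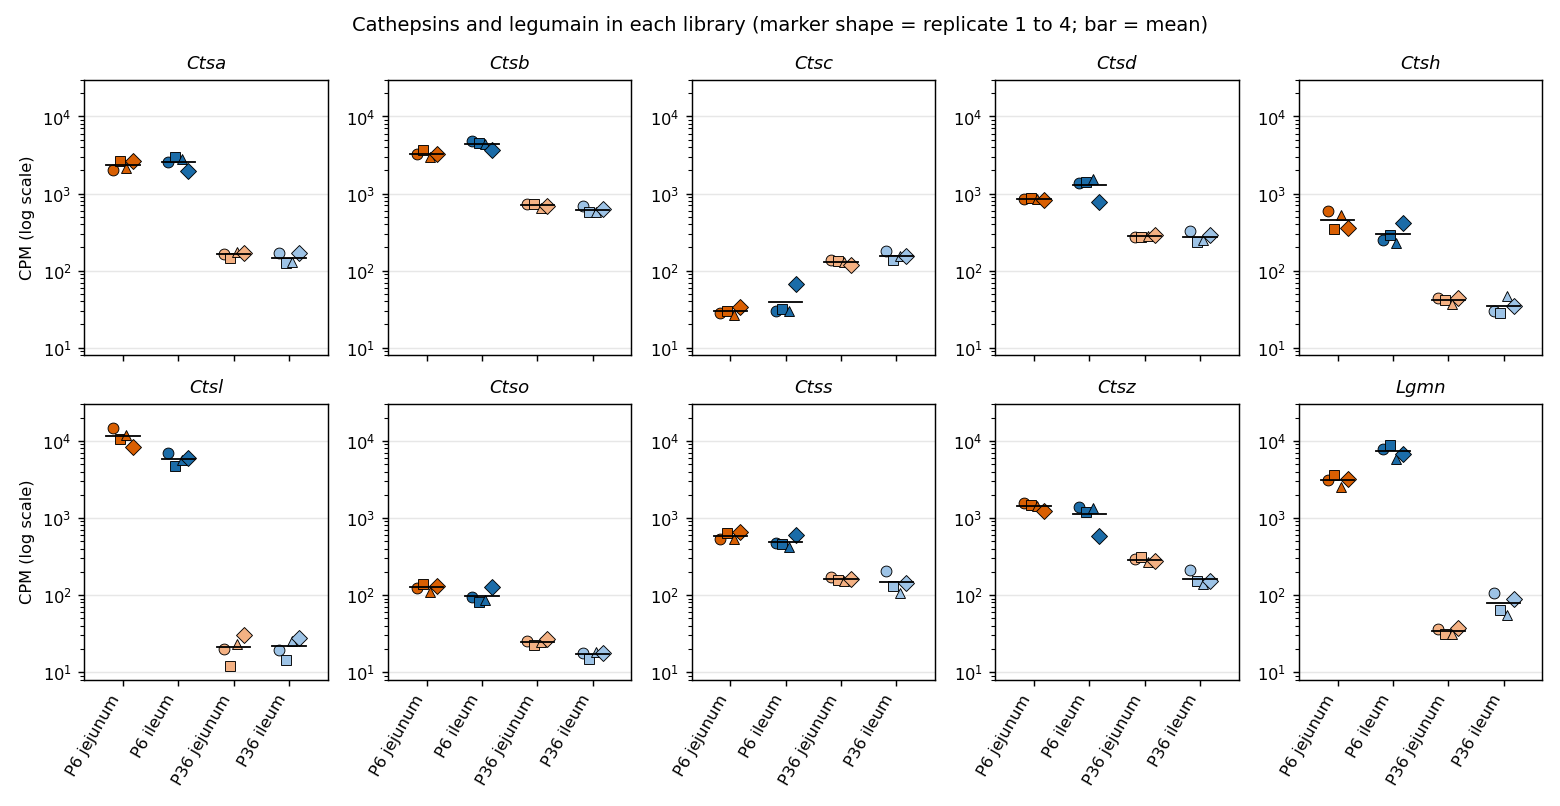
CPM (log scale) of each of the 10 genes in the 16 libraries, one panel per gene, with the 4 groups along the horizontal axis, one marker shape per replicate and a bar at the group mean. In all, 9 genes are lower in both P36 groups, Ctsc is higher, and P6 ileum replicate 4 (diamond) lies apart from its group for Ctsc, Ctsd and Ctsz.

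The serine carboxypeptidase Ctsa, which also protects lysosomal beta-galactosidase and neuraminidase, had the next largest difference in both regions. Its jejunal level ranged from 2009 to 2653 CPM at P6 and from 145 to 174 CPM at P36, and its ileal level from 1989 to 3010 CPM and from 126 to 169 CPM. The log2 fold change was -3.84 (SE 0.19) in the jejunum and -4.13 (SE 0.19) in the ileum, 14.3 and 17.5 times lower. The exons counted for Ctsa overlap those of Neurl2 and Pltp over 325 and 495 bases, on the opposite strand. The counting used strand, and Neurl2 and Pltp reached at most 0.759 and 1.16 CPM in any library.

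Among the exopeptidases of the papain family, Ctsh, an aminopeptidase, had log2 fold changes of -3.45 (SE 0.24) in the jejunum and -3.08 (SE 0.24) in the ileum. Its jejunal level was 351 to 589 CPM at P6 against 37.3 to 44.8 CPM at P36, and its ileal level 225 to 419 CPM against 28.0 to 46.6 CPM. Ctsz, a carboxypeptidase, had log2 fold changes of -2.29 (SE 0.23) and -2.79 (SE 0.24), and ranged at P6 from 1232 to 1550 CPM in the jejunum and from 576 to 1397 CPM in the ileum. Both genes were thus lower at P36 in each region. Ctsb, which acts as both an endopeptidase and a carboxypeptidase, had log2 fold changes of -2.23 (SE 0.15) and -2.81 (SE 0.16). It was still one of the more abundant members at P36, at 659 to 735 CPM in the jejunum and 571 to 699 CPM in the ileum. Exons of Fdft1 overlap 16.3% of the Ctsb exon length on the opposite strand, and Fdft1 was higher at P36, at 69.0 ± 7.58 against 25.4 ± 2.97 CPM in the jejunum. Nelfcd overlaps Ctsz by 9 bases on the opposite strand and was also higher at P36.

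The smallest decreases in the jejunum were those of Ctsd and Ctss, and Ctso is described with them. Ctss, an endopeptidase that trims the class II invariant chain in antigen-presenting cells, had log2 fold changes of -1.89 (SE 0.18) in the jejunum and -1.75 (SE 0.18) in the ileum, and so did not pass the fold change minimum in either. For Ctsd, the aspartic peptidase, they were -1.61 (SE 0.18) in the jejunum, short of the minimum, and -2.22 (SE 0.19) in the ileum. For Ctso, a little studied member of the papain family, they corresponded to levels 5.12 and 5.64 times lower. The adjusted p-values of the 9 decreasing genes ranged from 4.81e-11 to 2.32e-06 over both regions.

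Ctsc, the dipeptidyl peptidase that activates granule serine proteases, was the 1 gene that rose. Jejunal values were 28.2, 30.3, 26.3 and 33.4 CPM at P6 and 136, 132, 130 and 117 CPM at P36. Ileal values were 29.9, 31.8, 29.6 and 67.1 CPM at P6 and 178, 136, 156 and 155 CPM at P36. The high P6 value belongs to replicate 4, which was still below every P36 ileum library. The change of Ctsc was 2.12 (SE 0.23, adjusted p = 9.86e-07) on the log2 scale in the jejunum and 1.98 (SE 0.22, adjusted p = 1.99e-06) in the ileum. Without P6 ileum replicate 4 the ileal value was 2.36, which passes the fold change minimum.

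**Figure D3:**
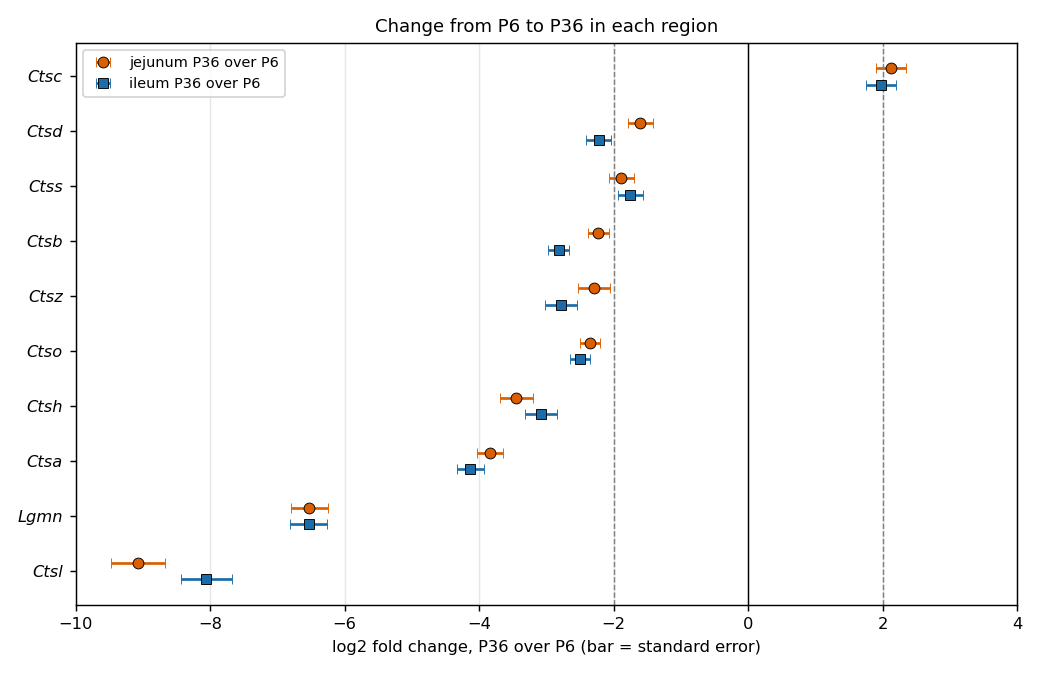
Log2 fold change from P6 to P36 of each gene in the jejunum (circles) and in the ileum (squares), with bars of 1 SE and dashed lines at the fold change minimum of 2 in each direction. Ctsl and Lgmn lie furthest below 0, at -9.07 to -6.52, and Ctsc lies above 0 at 2.12 and 1.98.

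Marker genes of other cell types were measured beside this change. The 16 genes of the macrophage and dendritic cell list summed to 186 to 519 CPM at P6 and to 35.5 to 94.0 CPM at P36, so the list as a whole was lower at P36, as 9 of the 10 peptidases were. Csf1r alone held 95.1% of the summed macrophage and dendritic cell markers of the P6 jejunum and 83.6% of those of the P6 ileum. Cd68 was also lower at P36, with jejunal levels of 8.52 ± 2.80 CPM at P6 and 2.36 ± 1.02 CPM at P36 and ileal levels of 20.9 ± 6.41 and 3.66 ± 2.19 CPM. The other 14 genes of the list, a subset formed after these values were seen, summed to 9.72 to 39.1 CPM at P6 and to 32.8 to 91.8 CPM at P36. Between the ages the Paneth cell list, led by Lyz1, went from 29.7 to 814 CPM at P6 to 4684 to 17814 CPM at P36, and the goblet cell list from 1706 to 4112 to between 11076 and 22873 CPM. The part of cell composition in the age differences was not tested.

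The regions were then compared at P6, the age at which the suckling jejunum and ileum take up milk protein. The 2 most abundant members differed in opposite directions, with Lgmn higher in the ileum and Ctsl higher in the jejunum. None of the 10 genes passed both the adjusted p and the fold change minimum in edgeR or in DESeq2, against 6.50% of tested genes in edgeR. Without the fold change minimum 4 of 10 passed, against 25.9% of tested genes, and 6 had an unadjusted p below 0.05, against 37.7%. DESeq2 gave 6 of 10 at an adjusted p below 0.05, against 30.3% of tested genes. The median log2 fold change of the family, jejunum over ileum, was 0.06, against -0.05 over all tested genes.

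Lgmn in the P6 ileum ranged from 5818 to 8861 CPM and in the P6 jejunum from 2495 to 3657 CPM, and the groups did not overlap. The log2 fold change was -1.23 (SE 0.22, adjusted p = 0.000641), a level 2.34 times higher in the ileum. Within each mouse the jejunum held 0.400, 0.413, 0.429 and 0.474 of the ileal CPM, so the ileum was higher in 4 of 4. Ctsl was higher in the jejunum of 4 of 4 mice, by ratios of 2.10, 2.27, 2.16 and 1.42, with no overlap between the groups. Its log2 fold change was 0.98 (SE 0.28, adjusted p = 0.0175). The adjusted p of Ctsl was 0.0587 without P6 jejunum replicate 1, the highest of its group, and 0.0605 when libraries were scaled by their totals.

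Seen as a ratio within each library, Lgmn TPM over Ctsl TPM was 0.225, 0.360, 0.218 and 0.398 for the P6 jejunum and 1.18, 1.98, 1.10 and 1.19 for the P6 ileum. Ctsl thus exceeded Lgmn in every P6 jejunum library and Lgmn exceeded Ctsl in every P6 ileum library. At P36 the ratio ranged from 1.29 to 2.68 in the jejunum and from 2.27 to 5.85 in the ileum, at levels of both genes that were far lower. A ratio within a library does not depend on the scaling, and it was formed with the values of both genes known, so no test is given.

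Ctsd, at 860, 879, 858 and 821 CPM in the P6 jejunum, lay at 1375, 1419, 1564 and 784 CPM in the P6 ileum. In the ileum 3 libraries were above all jejunal ones and replicate 4 was below them. The log2 fold change was -0.59 (SE 0.18, adjusted p = 0.0247), and without P6 ileum replicate 4 the adjusted p was 0.000146. It rose to between 0.0531 and 0.0676 without any 1 of the 4 P6 jejunum libraries or without P6 ileum replicate 2 or 3. Ctsh passed the threshold narrowly, at 0.63 (SE 0.22, adjusted p = 0.0497), with overlapping groups and a higher jejunum in 3 of 4 mice.

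Whether Ctsh passed the adjusted p depended on single libraries. Its adjusted p was 0.00536 without P6 ileum replicate 4, 0.157 without P6 jejunum replicate 1, 0.118 without P6 jejunum replicate 3, and 0.132, 0.0887 and 0.134 without P6 ileum replicates 1, 2 and 3. Without 1 of the 4 P36 jejunum libraries or of P36 ileum replicates 2 and 4 it lay between 0.0556 and 0.0617, and with the mouse as a block it was 0.105. The ratio of jejunum to ileum was 2.35 and 2.36 in mice 1 and 3 and 1.22 and 0.844 in mice 2 and 4. Mice 1 and 3 and mice 2 and 4 carry identifiers with different stems, whose meaning the labels do not give, and the Paneth cell list split the same way, at 479 to 814 CPM and 29.7 to 91.1 CPM. The part of this split in the Ctsh values was not tested. Lgmn and Ctsl kept their direction in all 4 mice.

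**Figure D4:**
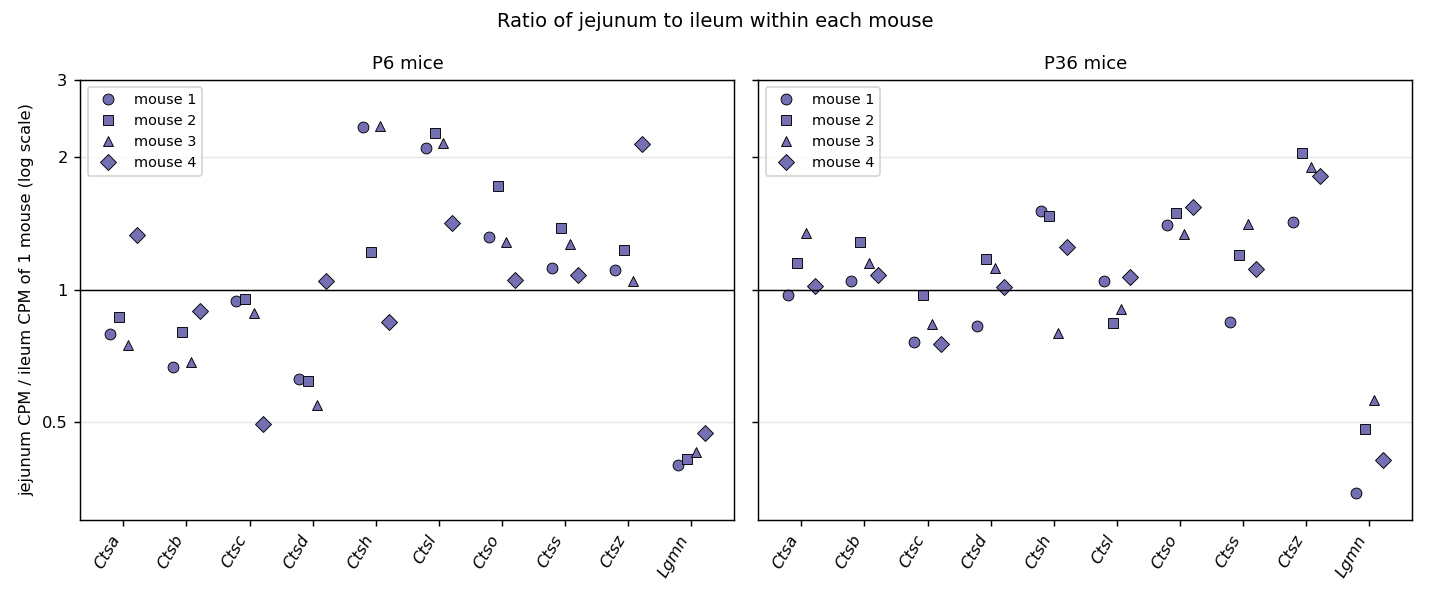
Ratio of jejunal to ileal CPM within each mouse for the 10 genes (log scale), with P6 mice on the left, P36 mice on the right and one marker shape per mouse. Lgmn lies below 1 in 8 of 8 mice, Ctsl lies above 1 in the 4 P6 mice and on both sides of 1 in the P36 mice, and P6 mouse 4 lies apart for Ctsa, Ctsc, Ctsd and Ctsz.

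Ctso and Ctsb lay just beyond the threshold at P6. Ctso was higher in the jejunum of 4 of 4 mice, at 0.39 on the log2 scale (SE 0.14, adjusted p = 0.0506), and it passed with the mouse as a block (adjusted p = 0.0409). Ctsb was higher in the ileum of 4 of 4 mice, at -0.40 (SE 0.15, adjusted p = 0.0538). P6 ileum replicate 4 was the lowest of its group for Ctsa, Ctsb, Ctsd and Ctsz and the highest for Ctsc, Ctsh, Ctso and Ctss, that is, at an edge of the group for 8 of 10 genes. Some library is at each edge for every gene, and the share of all genes with this library there was not counted. Over all genes it differed from the rest of its group by a chi-square per gene of 226 to 272, against 20.4 to 41.0 among the rest. Without this library 6 genes passed an adjusted p of 0.05, against 32.6% of tested genes, among them Ctsb (0.00891) and Ctso (0.000935), and the log2 fold change of Ctsc went from -0.42 to -0.04.

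The other 4 members did not pass the adjusted p between the P6 regions. The fold change, jejunum over ileum, was 0.906 for Ctsa (95% interval 0.718 to 1.14), 0.746 for Ctsc (0.555 to 1.00), 1.20 for Ctss (0.944 to 1.53) and 1.25 for Ctsz (0.926 to 1.70). Within mice, Ctss and Ctsz were higher in the jejunum in 4 of 4, Ctsc was higher in the ileum in 4 of 4 and Ctsa in 3 of 4. Directions of this size can depend on the scaling. TMM raised the P6 jejunum relative to the ileum, and with library totals the median over all genes moved from -0.05 to -0.33 and the value of Ctss from 0.26 to -0.02.

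At P36 the regional differences were again led by Lgmn. It lay at 36.7, 30.8, 31.2 and 37.0 CPM in the jejunum and at 106, 63.7, 55.5 and 90.1 CPM in the ileum, with no overlap and a higher ileum in 4 of 4 mice. The log2 fold change of -1.22 (SE 0.22, adjusted p = 0.00122) was close to that at P6, at far lower levels. None of the 10 genes passed the fold change minimum in edgeR or in DESeq2, against 3.60% of tested genes in edgeR. Without it 3 passed in either tool, against 16.1% of tested genes in edgeR and 20.2% in DESeq2, and 3 had an unadjusted p below 0.05, against 29.0%.

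The other 2 were higher in the jejunum. Ctsz lay at 297, 312, 267 and 280 CPM in the jejunum and at 208, 153, 140 and 154 CPM in the ileum, and its log2 fold change was 0.82 (SE 0.23, adjusted p = 0.0205). Ctso lay at 25.2, 22.3, 24.4 and 27.1 CPM and at 17.9, 15.0, 18.3 and 17.6 CPM, and its log2 fold change was 0.53 (SE 0.14, adjusted p = 0.0179). Both were higher in the jejunum of 4 of 4 mice, without overlap. The adjusted p of Ctsz rose to between 0.054 and 0.0611 without P36 jejunum replicate 1 or 2 or P36 ileum replicate 2, 3 or 4, and that of Ctso to 0.058 without P36 jejunum replicate 4 and to 0.0597 without P36 ileum replicate 2. Ctsc did not overlap between the P36 regions either, with the ileum higher, but its log2 fold change of -0.28 (SE 0.22) had an adjusted p of 0.436. Without P6 ileum replicate 4, which enters the shared estimate of spread, that p was 0.0379.

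**Figure D5:**
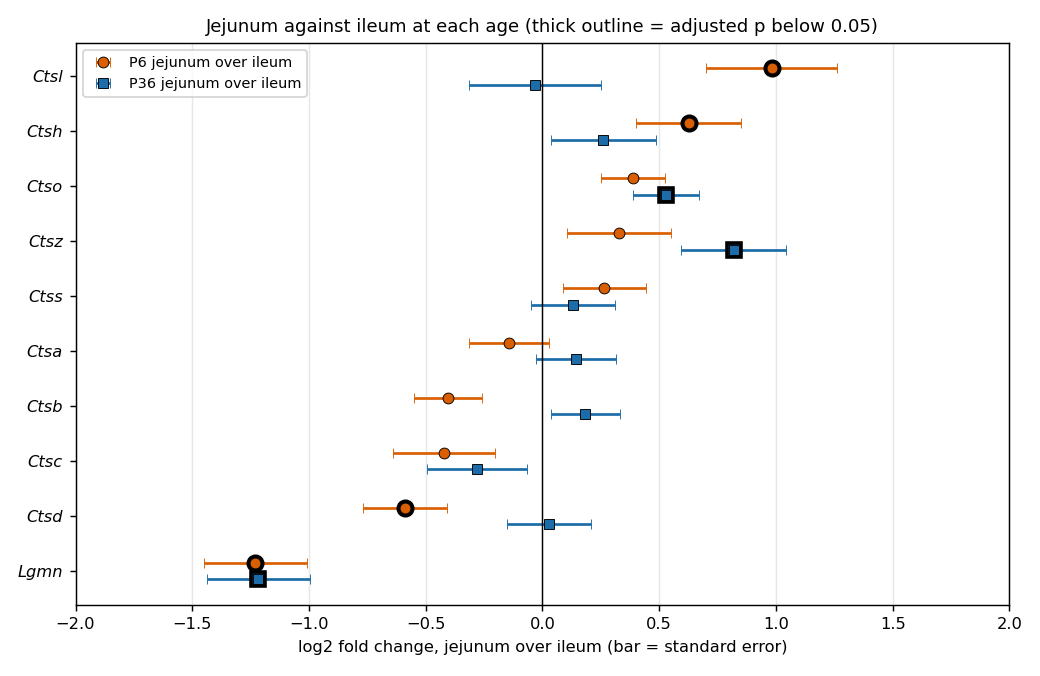
Log2 fold change of each gene between jejunum and ileum at P6 (circles) and P36 (squares), positive where the jejunum is higher, with bars of 1 SE and a thick outline where the adjusted p is below 0.05. Lgmn lies at -1.23 and -1.22 at the 2 ages, whereas Ctsl lies at 0.98 at P6 and at -0.03 at P36.

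Whether the regional difference itself changed with age was tested as an interaction. None of the 10 genes passed an adjusted p of 0.05 in edgeR, against 8.69% of tested genes, and 3 had an unadjusted p below 0.05 (Ctsb, Ctsd and Ctsl), against 22.9%. DESeq2 passed 1 gene, Ctsb, at an adjusted p of 0.0079, against 12.8% of tested genes. The interaction of Ctsl was 1.01 on the log2 scale (SE 0.40, adjusted p = 0.137), and with the mouse as a block it was 1.02 (adjusted p = 0.0363). Those of Ctsb and Ctsd were -0.59 (SE 0.21, adjusted p = 0.0961) and -0.61 (SE 0.25, adjusted p = 0.159). Without P6 ileum replicate 4 both passed, at 0.019 and 0.00397, as did Ctsz at 0.0234, against 14.0% of tested genes, and without P36 ileum replicate 1 Ctsb passed at 0.0486. For Lgmn the interaction was -0.01 (SE 0.31), with a 95% interval of the ratio of fold changes from 0.651 to 1.51.

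Other cathepsins and related genes were mostly low or without counts in this epithelium. Of 16 listed genes 6 could be tested. The cathepsin-like Tinag and Tinagl1 were the exceptions, at 57.0 ± 12.7 and 76.1 ± 34.6 CPM in the P6 ileum and at group means of 20.4 to 46.5 CPM elsewhere. There were 9 genes, the placental cathepsins Cts3, Cts6, Cts7, Cts8, Ctsj, Ctsm, Ctsq and Ctsr together with Ctsll3, with 0 counts in all 16 libraries, where 3 counts in the smallest library would be 0.247 CPM. Ctsf, a papain-family relative of low level, changed with age in opposite directions in the 2 regions. Its jejunal level was 1.16 to 3.52 CPM at P6 and 6.11 to 10.9 CPM at P36, and its ileal level 9.72 to 14.6 CPM and 1.35 to 6.63 CPM. Its log2 fold change with age was 2.10 in the jejunum and -2.06 in the ileum, and its interaction of -4.16 (SE 0.66) had an adjusted p of 0.000878. Ctsw, known from cytotoxic lymphocytes, was called higher with age in the jejunum at 2.90 (SE 0.62), where the T cell markers reached 104 and 135 CPM in P36 replicates 1 and 3 against at most 13.3 CPM in the other P36 libraries. In the interaction the other call of the list was Tinag (-1.10, SE 0.30).

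Other lysosomal peptidases and amidases moved with age as most of the cathepsins did. Of 9 listed genes 8 were tested, and 7 were called lower at P36 in both regions, against 8.59% (jejunum) and 10.0% (ileum) of tested genes. Tpp1, which removes tripeptides, had log2 fold changes of -3.24 (SE 0.15) in the jejunum and -3.86 (SE 0.15) in the ileum. They were -2.85 (SE 0.14) and -2.67 (SE 0.14) for the serine carboxypeptidase Scpep1, -5.24 (SE 0.31) in the ileum for the dipeptidyl peptidase Dpp7 and -2.55 (SE 0.18) in the jejunum for the carboxypeptidase Cpq. The aspartic peptidase Napsa was called higher, at 1.23 CPM in both P36 groups and at 0.141 and 0.235 CPM in those at P6. At P6, 4 of the 8 passed an adjusted p of 0.05 toward the ileum, against 14.8% of tested genes, and 0 toward the jejunum, with a list median of -0.60. The gamma-glutamyl hydrolase Ggh had an interaction of -1.85 (SE 0.35, adjusted p = 0.00347).

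Few of the listed inhibitors of these enzymes could be tested. Of 25 listed cystatins, kininogens and related genes 7 were tested. At P6, 3 of the 7 passed an adjusted p of 0.05 toward the ileum, against 14.8% of tested genes, and 1 toward the jejunum. Cstb, the cytosolic cystatin B, had log2 fold changes with age of -2.53 (SE 0.16) in the jejunum and -3.05 (SE 0.17) in the ileum. The kininogens Kng1 and Kng2, which carry cystatin domains, were called higher in the P6 ileum, at 7.38 ± 0.932 and 7.65 ± 1.53 CPM, than in the P6 jejunum, at 0.320 ± 0.124 and 0.765 ± 0.205 CPM. At P36 Kng1 had 0 counts in all libraries and Kng2 had 1 count in the jejunum and 2 in the ileum.

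Of 13 genes that sort lysosomal enzymes, 3 were called lower at P36 in both regions, against 8.59% (jejunum) and 10.0% (ileum) of tested genes. None was called higher, against 7.86% and 6.40%. At an adjusted p below 0.05 alone, 7 were lower and 2 higher in the jejunum, and 9 lower and 1 higher in the ileum. In either direction 51.6% and 55.7% of tested genes passed that threshold. Gga2, an adaptor of mannose 6-phosphate receptors, had log2 fold changes of -5.39 (SE 0.26) in the jejunum and -5.44 (SE 0.27) in the ileum. They were -2.44 (SE 0.16) and -2.78 (SE 0.17) for Igf2r, the cation-independent mannose 6-phosphate receptor, and -2.42 (SE 0.23) and -2.11 (SE 0.23) for Cln8, which moves enzymes out of the endoplasmic reticulum. At P6, 6 of the 13 passed an adjusted p of 0.05 toward the ileum, where 14.8% of tested genes did, and 0 toward the jejunum, with a list median of -0.44. Gnptab, a subunit of the enzyme that makes the mannose 6-phosphate tag, and Tmem251, a factor required for that enzyme, had interactions of -1.04 (SE 0.20) and -0.82 (SE 0.23).

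Among 16 regulators of lysosomal or neonatal enterocyte genes, 7 were called lower at P36 in each region and 0 higher. Of all tested genes 8.59% (jejunum) and 10.0% (ileum) were called lower. Fnip2, a partner of folliculin, had log2 fold changes of -3.35 (SE 0.13) in the jejunum and -3.41 (SE 0.14) in the ileum. Prdm1, a repressor known for holding the suckling program of enterocytes, was at -4.98 (SE 0.34) and -5.72 (SE 0.35). Tfec, a member of the TFEB family, had P6 levels of 179 ± 18.9 CPM (jejunum) and 224 ± 81.9 CPM (ileum), and 15 and 3 counts in all at P36. Between the P36 regions the nutrient-sensing GTPase Rragd was called higher in the jejunum, at 2.48 (SE 0.23), and its interaction was -2.18 (SE 0.30), beside that of Fnip1 at -1.05 (SE 0.29).

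Most tested genes of class II antigen presentation, the pathway in which Ctss is best known, moved the other way. Of 11 tested genes 10 were called higher at P36 in the jejunum and 8 in the ileum, against 7.86% and 6.40% of all tested genes. Ctss itself was lower at P36 in both. At an adjusted p below 0.05 alone, 1 gene of the list was also lower in both regions. That gene, Ifi30, a lysosomal thiol reductase, was at -0.76 (SE 0.17) in the jejunum and -1.64 (SE 0.17) in the ileum. Ciita, the class II transactivator, rose by 5.78 (SE 0.62) in the jejunum and by 5.43 (SE 0.61) in the ileum. H2-DMb1 rose by 6.63 (SE 0.88) and 5.60 (SE 0.82), and H2-Ab1 by 6.16 (SE 0.87) and 5.11 (SE 0.82). The P36 libraries varied widely, with H2-Ab1 at 81.2 to 391 CPM in the jejunum and 43.8 to 287 CPM in the ileum. Between the P6 regions H2-Ob was called lower in the jejunum, and in the interaction Ifi30, a lysosomal thiol reductase, was at -0.88 (SE 0.24).

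The genes whose log2 CPM profile over the 16 libraries lay closest to each member were found among 13428 others, as the root mean square distance after centring each profile. Genes close to Ctsb included Fuca1, the lysosomal fucosidase, at 0.206 and Igf2r at 0.211. For Ctss they were the lysosomal membrane gene Lamp1, Tmem87b and Acnat1, at 0.170 to 0.191, and for Ctsz they were Nid2, the folliculin gene Flcn and Pqlc2, a lysosomal amino acid transporter, at 0.160 to 0.207. Ctsd was nearest to Zfyve26, Wdfy3 and Gch1 (0.165 to 0.253), Ctso to Rabep1, Nsun4 and Herc3 (0.183 to 0.198), and Ctsa to Slc38a7, Pnpla7 and H6pd (0.283 to 0.336). Ctsh was nearest to Tmx4, Tctn3 and Plagl2 (0.286 to 0.362) and the rising Ctsc to Elovl7, Bag1 and D17H6S56E-5 (0.220 to 0.278).

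No gene lay so close to Lgmn or Ctsl. Each profile was centred but not scaled to a common spread, and these genes had the largest changes of the family. Their distances cannot be compared directly with those of the other members. The nearest to Lgmn were Atp11a, Ccdc160 and Bend4, at 0.451 to 0.527, and the nearest to Ctsl were Renbp, Lrrc10b and Csf1r, at 0.668 to 0.713. Csf1r shared with Ctsl both a higher P6 jejunum, at 455 ± 34.4 CPM against 244 ± 74.2 CPM in the P6 ileum, and a near loss at P36, at 2.04 ± 1.14 and 1.08 ± 0.433 CPM. A small distance describes these 16 libraries alone.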

How the data were processed

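Epithelium released with EDTA from jejunum and ileum was sequenced as stranded mRNA on a NovaSeq. The authors used Trimmomatic 0.38 for trimming and STAR (2.5.3 in the submitters' processing notes) for alignment to mm10, and deposited the raw count of read pairs on exons of each gene, made with featureCounts 1.6.3 on the reverse strand. No duplicate removal or normalization is stated.

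From these counts, genes were kept by filterByExpr (13429 of 24421), scaled by TMM and tested with edgeR 4.0.16 (quasi-likelihood, R 4.3.3) in 1 model of 4 group means over all 16 libraries, with Benjamini-Hochberg adjustment over all tested genes. A call required an adjusted p below 0.05 together with a log2 fold change beyond 2 in either direction, or, for the interaction, that adjusted p alone. An SE is the log2 fold change divided by the square root of its F statistic. TPM used the exon length in the files. Profiles used log2 CPM with a prior count of 2.

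No 2 replicates were copies (chi-square per gene 13.2 to 272 over 24 pairs). The regions of a mouse are paired: deviations of all genes from the group means had a mean correlation of 0.317 between the regions of a mouse at P6 and 0.303 at P36, against -0.106 and -0.101 between mice. Because each group was centred on its own mean, the between-mouse mean is tied to the same-mouse mean and is no independent reference. At P6, different mice with the same identifier stem had correlations of 0.008 to 0.120, against -0.284 to -0.073 between mice with different stems. The test was also run on simulated counts, but neither the setting nor the outcome is given, and no result here rests on that check.

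Members, lists and tests were chosen with earlier results of these data known. All 10 members are named, with at most 3 called genes of each list per comparison and the 3 nearest profiles of each member, except 1 profile that is not reported here. Alternatives were median-of-ratios scaling, library totals, DESeq2 1.42.0, no filter, a mean CPM of at least 1, a fit of the 8 compared libraries, sex as covariate, the mouse as a block and each library left out. Counting adjusted p without the fold change minimum under every alternative was chosen after seeing the data, as was the macrophage list without Csf1r and Cd68.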

Additional observations from a re-analysis of the deposited data

Results flagged for a closer look

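Among 40 sets of 4 libraries (10 genes in 4 groups), 1 held a library far from the others by Dixon's ratio, where chance alone gives about 1 in 20. It was Ctsc in P6 ileum replicate 4, at 67.1 CPM against 29.6 to 31.8 CPM in the other P6 ileum libraries, a ratio of 0.943, past the 95% critical value. The jejunum of the same mouse held 33.4 CPM of Ctsc, within 26.3 to 33.4 CPM of its group. The same library lay at 0.885 on an axis from the mean P6 jejunum (0) to the mean P6 ileum (1), each mean taken over the other libraries of the group, against 0.794 to 0.819 in the other P6 ileum libraries. It held a lower sum of enterocyte markers, which Apoa4 led in its group, and a higher sum of stem and cycling cell markers. The part of these in the Ctsc value was not tested. On the same kind of axis between the P36 regions, P36 ileum replicate 1 lay at 0.602, nearer the jejunum than the other P36 ileum libraries, at 0.928 to 1.12.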

How the results depend on the processing

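Every log2 fold change with age kept its direction and its side of an adjusted p of 0.05 under all alternatives, 320 values with 1 library left out and 140 others. Ctsc passed the fold change minimum in the ileum with DESeq2. Between the regions and in the interaction, 480 values with a library left out gave 25 losses of an adjusted p below 0.05, 12 gains and 15 changes of sign, and 230 others gave 8, 12 and 4. Dropping the fold change minimum gave 4 genes at P6 and 3 at P36, in place of 0. At an adjusted p below 0.05, leaving out 1 library gave 1 to 6 genes at P6 (1 without P6 jejunum replicate 1, 2 without P6 ileum replicate 2 or 3) and 1 to 4 at P36 (1 without P36 ileum replicate 2), and a fit of the P6 libraries alone gave 2. The interaction passed for 1 gene with library totals (Ctsb), 1 with DESeq2 and 0 to 3 without 1 library. With the mouse as a replicate block it passed for 1 gene (Ctsl), Ctsh no longer passed the adjusted p at P6 and Ctso did, and no other gene crossed it. Signs changed in small values. With library totals Ctss was at -0.023 at P6, Ctsd at -0.10 at P36 and the Ctss interaction at -0.040, and without a filter the Lgmn interaction was at 0.017. Leaving out 1 library moved Ctsd at P36 to between -0.027 and 0.11, Ctsl at P36 to between -0.24 and 0.16, and the interaction of Ctsc to between -0.28 and 0.24, of Ctso to between -0.22 and 0.016, of Ctss to between -0.0615 and 0.26 and of Lgmn to between -0.18 and 0.13. The cause of these shifts was not tested. Counts were lowest at P36 for Ctso and Ctsl, at 222 to 544 and 253 to 629 counts per library.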
